A study of Mus musculus with 6 samples.

Results

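The enzymes described here make, use up and remake homocysteine in the mouse ovary. They comprise 10 genes of the 33036 features in the deposited table, and all 10 were found by symbol. Mat2a, Gnmt, Ahcy and Mtr belong to the methionine cycle, Bhmt, Bhmt2, Dmgdh and Sardh to the betaine pathway, and Cbs and Cth to transsulfuration. They were chosen from the pathway by symbol with the TPM values of the hypoxia comparison already known, so their differences between the groups are given as a description, with no p-value. No threshold on a measured value defined the set.

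RNA from whole ovaries of female C57BL/6J mice was sequenced after 15 days at the local pressure of Lanzhou (83.56 kPa, 17.8 kPa oxygen, an altitude of 1588 m in the series text and 1500 m by title) or in a low-pressure chamber (43.12 kPa, 8.1 kPa oxygen, labelled 6500 m, but 5000 m in the sample descriptions). Each group gave 3 libraries and held 15 mice, 8 weeks old in the series text and 6 to 8 weeks old in the descriptions. Both groups were cycle-synchronised beforehand by gavage of levonorgestrel and ethinylestradiol, with doses of 0.1 and 0.02 mg/kg stated for the hypoxia samples only, and hypoxia was interrupted briefly for feeding. The sample descriptions differ from the series text on duration, with 15, 16 or 17 days by replicate number, and the light and dark hours of the normal-pressure samples read 12 and 12, 12 and 13, and 12 and 14. The labels do not say which mouse or pool gave a library, so the p-values rest on a spread among libraries that may be technical.

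As background, methionine adenosyltransferase turns methionine into S-adenosylmethionine, the methyl donor of the cell, and each methyl transfer leaves S-adenosylhomocysteine, which is hydrolysed to homocysteine. Homocysteine is then either remethylated to methionine, by methionine synthase with a folate methyl group or by betaine-homocysteine methyltransferase with a methyl group of betaine, or passed through cystathionine to cysteine. Betaine that has given up a methyl group becomes dimethylglycine, which 2 mitochondrial dehydrogenases degrade by way of sarcosine to glycine. The betaine route is best known from liver and kidney.

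In these libraries the genes separated into abundant and near-silent members. The unit, TPM (transcripts scaled to a common library total), is corrected for transcript length, so levels can be compared between genes. At normal pressure the order of mean levels was Mat2a (79.5 TPM), Cbs (56.7), Ahcy (42.0), Bhmt (18.8), Mtr (15.8), Sardh (12.0), Cth (1.93), Gnmt (0.650), Dmgdh (0.157) and Bhmt2 (0.0667). Bhmt and Mtr stood next to each other without overlapping at normal pressure, at 17.7 to 20.1 and 13.5 to 17.4 TPM, whereas the ranges of Dmgdh and Bhmt2 overlapped, as the only neighbours in that order to do so. Under hypoxia Bhmt stood in place 7 instead of 4 and Cbs in place 3 instead of 2, and the others kept their order among themselves. There Cbs and Mtr just touched, at 20.21 TPM in the lowest Cbs library and 20.22 in the highest Mtr library, and Bhmt overlapped with Cth above it and Gnmt below it. Gnmt, Dmgdh and Bhmt2 stayed under 1 TPM in every library and did not reach the filter on low values (at least 1 TPM in at least 3 libraries), so 7 of the 10 were tested.

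Of those 7, Bhmt and Cbs were lower under hypoxia past an adjusted p of 0.05 in limma's test over all features, and none was higher. Among all 17120 features tested, 7.2% were lower and 11.1% higher by the same rule. Since the set was chosen with this comparison in view, nothing is read from its count. The median log2 fold change of the 7 was 0.00, beside 0.08 for all features.

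**Figure D1:**
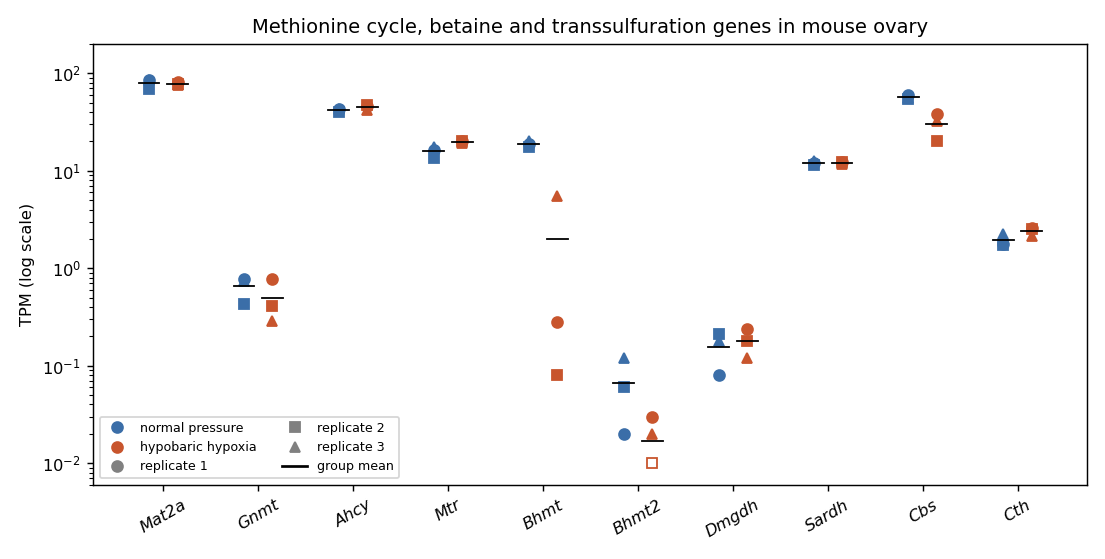
TPM of the 10 genes on a log axis in the 3 normal-pressure (blue) and 3 hypobaric hypoxia (orange) libraries, with the group mean as a black line and an open symbol at 0.01 for the library listed at 0. Bhmt at 0.08 to 5.56 TPM and Cbs at 20.2 to 38.2 TPM under hypoxia lie below all normal-pressure libraries, while Mat2a, Ahcy and Sardh overlap between the groups.

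The promoters of the genes that carry the contrast are shown next, since Bhmt and Cbs differed between the groups and Mtr makes the other remethylating enzyme. Each window runs 5′ to 3′ on the gene's own strand from 250 bases before to 50 bases from the start site on, from RefSeq on GRCm38.p6, where 9 of the 10 genes matched a window (all but Cth). Windows lie at chr13:93637709-93638008 (minus strand) for Bhmt, chr17:31637156-31637455 (minus strand) for Cbs and chr13:12258064-12258363 (minus strand) for Mtr. Capitals mark matches, on either strand, to AAGGTCA (the motif of NR5A nuclear receptors), ACGTG (the core motif of hypoxia-inducible factors), CCAAT or GGGCGG (the GC box).
Bhmt: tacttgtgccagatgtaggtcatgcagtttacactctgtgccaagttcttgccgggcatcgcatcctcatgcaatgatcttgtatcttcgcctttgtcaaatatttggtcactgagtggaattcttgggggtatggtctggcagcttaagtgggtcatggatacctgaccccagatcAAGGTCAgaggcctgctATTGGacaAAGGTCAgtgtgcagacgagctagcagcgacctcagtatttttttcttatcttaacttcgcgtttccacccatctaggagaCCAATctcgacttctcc
Cbs: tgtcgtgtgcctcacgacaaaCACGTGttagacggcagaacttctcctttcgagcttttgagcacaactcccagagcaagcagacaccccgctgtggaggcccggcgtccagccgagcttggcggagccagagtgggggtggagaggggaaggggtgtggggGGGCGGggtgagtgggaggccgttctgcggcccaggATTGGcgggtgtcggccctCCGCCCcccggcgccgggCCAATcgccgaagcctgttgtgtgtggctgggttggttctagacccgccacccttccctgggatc
Mtr: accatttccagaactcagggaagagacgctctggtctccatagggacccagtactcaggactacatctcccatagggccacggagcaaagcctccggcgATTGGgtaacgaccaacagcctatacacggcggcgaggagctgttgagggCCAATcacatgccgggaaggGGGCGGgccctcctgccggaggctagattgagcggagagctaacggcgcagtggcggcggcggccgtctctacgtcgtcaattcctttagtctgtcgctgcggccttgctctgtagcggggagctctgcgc

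The Bhmt window held AAGGTCA at 2 places, 73 and 48 bases before the start site and both on the gene's strand, with a CCAAT match on the other strand 56 bases before it. Of 21263 windows of protein-coding genes, 4.08% held AAGGTCA at least once and 0.141% at 2 or more places. None of the other 8 windows of these enzymes held it. Of the 9 windows only that of Cbs held ACGTG, within a single CACGTG that reads the same on both strands (228 and 229 bases before the start site). That motif was in 20.9% of windows. Mtr and Cbs each held CCAAT at 2 places, as Bhmt did, and both held the GC box, which Bhmt lacked. CCAAT was in 38.2% and the GC box in 46.2% of windows. A match to TTCNNNGAA, the STAT motif found in 7.69% of windows, was in none of the 9. These matches are letters in a window and not measured binding sites.

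Bhmt encodes the cytosolic enzyme that methylates homocysteine with betaine. It measured 18.67, 17.7 and 20.14 TPM in normal-pressure replicates 1, 2 and 3, and 0.28, 0.08 and 5.56 TPM in the hypoxia replicates. All 3 hypoxia libraries were below all 3 normal-pressure libraries, but they spread widely, with replicate 3 far above replicates 1 and 2. The group means were 18.8 ± 1.23 and 1.97 ± 3.11 TPM (SD, n = 3). The log2 fold change was -3.25 (SE 0.43). It and all others are differences of log2(TPM + 1), so changes of low genes appear too small. It was the 17th lowest of the 17120 tested. Without hypoxia replicate 3 it was -4.07 and without replicate 2 it was -2.77, and with a pseudocount of 0.1 it was -4.70. With robust variance estimation Bhmt did not pass the threshold.

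Bhmt2, the adjacent paralogue, measured 0.02, 0.06 and 0.12 TPM at normal pressure and 0.03, 0 and 0.02 TPM under hypoxia. Dmgdh, dimethylglycine dehydrogenase, measured 0.08, 0.21 and 0.18 TPM at normal pressure and 0.24, 0.18 and 0.12 TPM under hypoxia. Both lay near zero in every library and their groups overlapped, so no difference was detectable at these levels. Sardh, the sarcosine dehydrogenase that follows Dmgdh in the pathway, was well expressed, at 11.95, 11.57 and 12.55 TPM at normal pressure and 12.37, 12.17 and 11.62 TPM under hypoxia. Its groups overlapped, with a log2 fold change of 0.00 (SE 0.11). In each library Sardh exceeded Dmgdh by between 51.5-fold and 149-fold.

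Bhmt, Bhmt2 and Dmgdh lie side by side on chromosome 13 of GRCm38.p6, at 93616891 to 93637758, 93656097 to 93674302 and 93674436 to 93752823. Bhmt and Bhmt2 are on the minus strand and Dmgdh is on the plus strand, so Bhmt2 and Dmgdh start head to head with 133 bases between them. Of the 3, only Bhmt was expressed above 1 TPM in any library. Among the protein-coding neighbours, Arsb, a lysosomal arylsulfatase gene 18855 bases beyond Dmgdh, fell from 36.4 ± 4.11 to 23.0 ± 1.69 TPM (limma adjusted p = 0.00125), with no overlap. Lhfpl2, the next gene, rose from 47.1 ± 4.14 to 66.5 ± 5.69 TPM (adjusted p = 0.00685). Homer1 (15.0 ± 1.89 and 13.8 ± 0.529 TPM), Jmy (21.3 ± 2.19 and 25.8 ± 0.446 TPM) and Scamp1 (14.8 ± 1.57 and 15.9 ± 0.0723 TPM) did not pass, though Homer1 (lower) and Jmy (higher) did with each of the 3 other scalings. Gm6109, inside Jmy, was under 1 TPM throughout. Both directions thus occurred among the neighbours, and Bhmt had the largest difference of the 6 genes tested in the stretch.

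**Figure D2:**
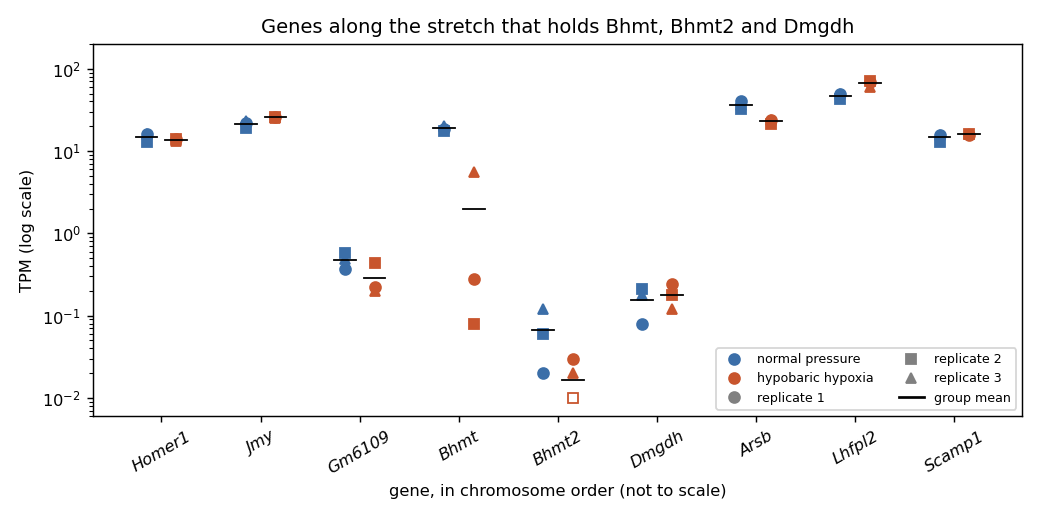
TPM, on a log axis, of the protein-coding genes of the Bhmt stretch in chromosome order, by library, with group means as black lines and an open symbol at 0.01 for a library listed at 0. Bhmt lies at 17.7 to 20.1 TPM at normal pressure and 0.08 to 5.56 TPM under hypoxia, between neighbours that are near zero (Bhmt2, Dmgdh, Gm6109) or at 12.8 TPM or more in all 6 libraries (Homer1, Jmy, Arsb, Lhfpl2, Scamp1).

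Mtr, the cobalamin-dependent methionine synthase, measured 16.47, 13.53 and 17.35 TPM at normal pressure and 20.22, 20.15 and 19.26 TPM under hypoxia. Every hypoxia library lay above every normal-pressure library, with the lowest value in normal-pressure replicate 2. Low values in that library were not particular to Mtr, since its median-ratio scaling factor was 0.851 (1.02 to 1.06 in the others). The log2 fold change was 0.32 (SE 0.12) and did not pass over all features, although it passed under 8 of the 14 alternatives, which included all 3 other scalings. Within a library, Bhmt made up 53.1%, 56.7% and 53.7% of the summed Bhmt and Mtr TPM at normal pressure, and 1.37%, 0.395% and 22.4% under hypoxia. This share does not change when each library is scaled by a constant factor, though quantile normalization can change it. The sum of both was 31.2 to 37.5 TPM at normal pressure and 20.2 to 24.8 TPM under hypoxia.

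Mat2a, the catalytic subunit that makes S-adenosylmethionine outside liver, measured 84.49, 68.42 and 85.65 TPM at normal pressure and 82.13, 77.74 and 75.52 TPM under hypoxia. The groups overlapped, with a log2 fold change of -0.01 (SE 0.11). Ahcy, which hydrolyses S-adenosylhomocysteine, measured 42.88, 40.39 and 42.74 TPM at normal pressure and 46.69, 47.19 and 42.34 TPM under hypoxia, also with overlap (log2 fold change 0.11, SE 0.10). Gnmt, glycine N-methyltransferase, which consumes S-adenosylmethionine in liver, measured 0.78, 0.43 and 0.74 TPM at normal pressure and 0.78, 0.41 and 0.29 TPM under hypoxia. The liver form of the adenosyltransferase, Mat1a, lay at 0.39 to 0.62 TPM, and Mat2a exceeded it by between 125-fold and 195-fold in every library.

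Cbs, cystathionine beta-synthase, commits homocysteine to cysteine synthesis. It measured 59.51, 54.64 and 55.89 TPM in normal-pressure replicates 1 to 3, and 38.22, 20.21 and 32.05 TPM in the hypoxia replicates. The groups did not overlap, and hypoxia replicate 2 was the lowest, as for Bhmt. The group means were 56.7 ± 2.53 and 30.2 ± 9.15 TPM (SD, n = 3), with a log2 fold change of -0.93 (SE 0.17), between -1.12 without hypoxia replicate 1 and -0.68 without hypoxia replicate 2. With no filter on low values Cbs did not pass the threshold. Cth, cystathionine gamma-lyase, which completes the step to cysteine, measured only 1.77, 1.75 and 2.26 TPM at normal pressure and 2.57, 2.5 and 2.15 TPM under hypoxia. Its groups overlapped (log2 fold change 0.22, SE 0.14). Cbs exceeded Cth by 33.6-fold, 31.2-fold and 24.7-fold at normal pressure and by 14.9-fold, 8.08-fold and 14.9-fold under hypoxia. Relative to Mtr, Cbs was at 3.61, 4.04 and 3.22 at normal pressure and at 1.89, 1.00 and 1.66 under hypoxia.

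**Figure D3:**
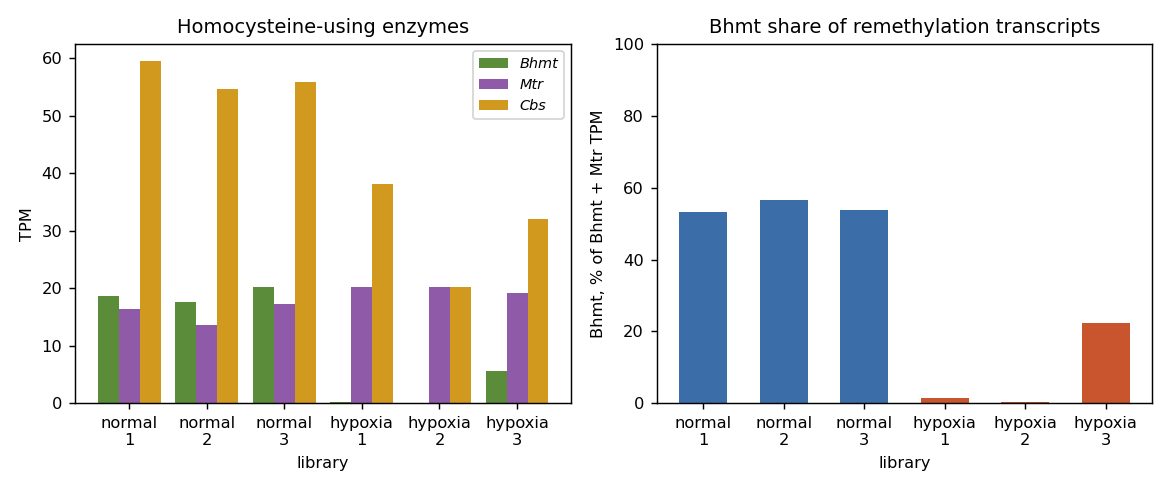
Left, TPM of Bhmt, Mtr and Cbs, the genes of 3 enzymes that use homocysteine, as bars for each library. Right, Bhmt as a percent of the summed Bhmt and Mtr TPM, with the normal-pressure bars at 53.1% to 56.7% and the hypoxia bars at 0.395% to 22.4%.

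Whole ovary holds many cell types, and fewer cells of a type and less RNA per cell cannot be told apart in these values. The ovarian label was checked against markers of its cell types, with Inha at 1109.69 to 1379.2 TPM, Gdf9 at 23.09 to 47.67 TPM and Cyp11a1 at 465.79 to 2988.2 TPM. Oviduct epithelium was also represented, since its secreted glycoprotein gene Ovgp1 measured 440.31 to 676.21 TPM at normal pressure and 174.06 to 354 TPM under hypoxia, and no marker of its list was at 0. The hepatocyte list summed to 33.5 to 50.9 TPM, nearly all of it from Apoa1 (15.71 to 37.69 TPM), Cyp2e1 (5.72 to 19.5 TPM) and Pck1 (0.78 to 4.23 TPM). Of its other markers, Alb reached at most 0.04 TPM, Ttr and Fgb were at 0 in 5 of the 6 libraries, and the kidney list summed to 0.31 to 1.11 TPM.

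Several cell type marker lists also differed between the groups. Of 12 luteal markers 11 fell and none rose, and the list summed to 4986 to 7590 TPM at normal pressure and 2075 to 2756 TPM under hypoxia, 70.3% to 89.4% of it from Cyp11a1 and Hsd3b1. Of 7 oviduct and surface epithelium markers 3 fell and none rose (573 to 838 and 273 to 497 TPM). All 6 tested of 7 adipocyte markers fell (256 to 331 and 100.1 to 206 TPM), and 3 of 5 stroma markers fell (450 to 522 and 315 to 364 TPM). All 5 tested of 6 erythroid markers rose (247 to 447 and 1663 to 2240 TPM), as did all 13 tested of 15 oocyte markers (142 to 185 and 228 to 279 TPM). Granulosa markers gave 3 higher and 2 lower of 11 (2182 to 2383 and 2646 to 2930 TPM), and theca and interstitial markers 4 higher and 1 lower of 6 (356 to 486 and 342 to 390 TPM). Lyz2 rose among 5 macrophage markers and Vwf among 5 endothelial markers. In the hepatocyte list Apoa1 rose and Cyp2e1 and Pck1 fell, and the other 7 of 10 were not tested. Some of these counts rested on a single library. Without normal-pressure replicate 2 only 1 adipocyte and no hepatocyte marker was lower, and 1 macrophage marker was. Without hypoxia replicate 2 only 1 oviduct and surface epithelium marker was lower. Without hypoxia replicate 2 or normal-pressure replicate 1, 1 granulosa marker was lower, and Lyz2 lost its call without normal-pressure replicate 1, hypoxia replicate 1 or hypoxia replicate 3. With no filter on low values 7 luteal, 1 adipocyte and no oviduct and surface epithelium markers were lower, and 7 oocyte and 2 theca and interstitial markers were higher. Under that setting Lyz2 also lost its call, no hepatocyte marker was lower, and 2 granulosa markers were higher and 1 lower. With robust variance 7 luteal markers were lower. With each of the 3 other scalings 5 granulosa markers were higher and 3 lower, and 2 macrophage markers were lower. Endothelial markers called higher numbered 2 with median-ratio scaling and quantile normalization, and 3 with the protein-coding total. The counts of the other marker lists were the same under these scalings. The part of these cell types in the Bhmt and Cbs values was not tested.

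Within the hypoxia group the libraries ranked for Bhmt as replicate 3, then 1, then 2. The same order held for 8 of the 12 luteal markers, for 5 of the 7 oviduct and surface epithelium markers, for 38.9% of all features called lower and for 18.8% of all tested features. Cyp11a1 makes pregnenolone from cholesterol and was the most abundant luteal marker at normal pressure. Per 1000 TPM of it, Bhmt stood at 6.93, 8.28 and 6.74 TPM at normal pressure and at 0.381, 0.172 and 6.45 TPM under hypoxia. Hypoxia replicate 3 was therefore close to the normal-pressure libraries on this scale, and replicates 1 and 2 were far below it. That closeness depends on the marker, since the luteal markers fell by unlike amounts. In hypoxia replicate 3, Hsd3b1 stood at 1397.01 TPM (1743.16 to 2344.81 TPM at normal pressure) and Abcb1b at 18.2 TPM (87.92 to 108.12 TPM). Cbs per 1000 TPM of Cyp11a1 was at 22.1, 25.6 and 18.7 TPM at normal pressure and higher, at 51.9, 43.4 and 37.2 TPM, under hypoxia. Per 100 TPM of the summed oviduct and surface epithelium list, 63.7% to 81.4% of which is Ovgp1, Cbs stood at 7.10, 9.53 and 7.12 TPM at normal pressure and at 7.92, 7.40 and 6.44 TPM under hypoxia, so that the groups overlapped. That overlap depends on the weight of Ovgp1. Under hypoxia the Cbs mean was 53.2% and the Ovgp1 mean 50.2% of the normal-pressure mean. All other markers of the list kept more, from 74.1% (Krt19) to 105.6% (Msln), so Cbs fell relative to each of them. Per 100 TPM of that list Bhmt stood at 2.23, 3.09 and 2.56 TPM and at 0.0580, 0.0293 and 1.12 TPM, with no overlap. These ratios were chosen after the values were seen.

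**Figure D4:**
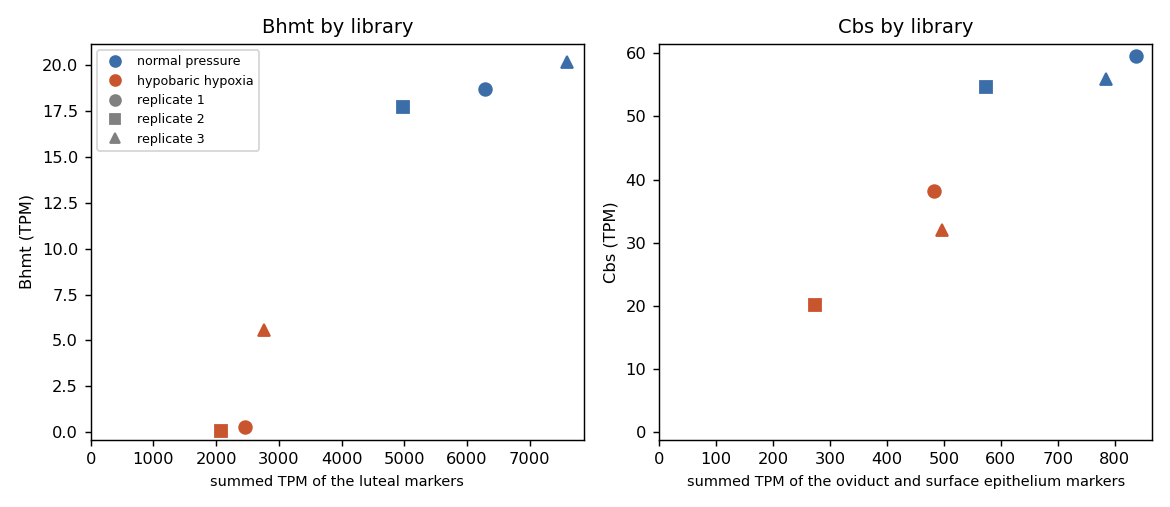
Left, Bhmt TPM against the summed TPM of the luteal markers, and right, Cbs TPM against the summed TPM of the oviduct and surface epithelium markers, 1 point per library, blue for normal pressure and orange for hypobaric hypoxia. The hypoxia libraries lie at lower luteal sums (2075 to 2756 TPM) and lower oviduct sums (273 to 497 TPM) than the normal-pressure libraries.

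The genes whose pattern over the 6 libraries lay nearest to Bhmt were Abcb1b, an efflux transporter gene, Hsd17b7, a steroid and sterol reductase gene, and Ssu2. Abcb1b and Hsd17b7 are also in the luteal list. Likeness was the mean absolute difference of log2(TPM + 1) after centring each gene, and it was 0.31, 0.41 and 0.43 among 13881 protein-coding features. Ssu2 measured 12.54, 11.09 and 8.46 TPM at normal pressure and 0.5, 0.35 and 4.25 TPM under hypoxia, again with the highest hypoxia value in replicate 3. Abcb1b measured 8.36, 4.92 and 18.2 TPM under hypoxia. Nearest to Cbs were Elf3, an epithelial transcription factor gene, Emb and Gcnt3, an O-glycan branching enzyme gene, at 0.069, 0.074 and 0.080. Elf3 measured 13.93, 13.03 and 13.2 TPM at normal pressure and 8.22, 5 and 6.61 TPM under hypoxia. Nearest to Mtr were Ipo9, Snx12 and Pla2g4a, at 0.0077, 0.0083 and 0.0088. With 6 libraries in 2 groups many genes share such patterns.

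The other genes of one-carbon and sulfur amino acid metabolism were taken from 7 lists of 90 genes in the table, of which 86 were tested. Of these 10 fell (11.6%, beside 7.2% of all features) and 2 rose (2.33%, beside 11.1%), with a median log2 fold change of -0.02. The split between higher and lower depended on scaling. It was 7 higher and 24 lower with median-ratio scaling, 7 and 20 with quantile normalization and 12 and 17 with the protein-coding total. That total left out Zfp949, which alone held 10.2% to 16.3% of a library's TPM. Among all features 60.7% of calls were higher as deposited, 46.8% with median-ratio scaling, 72% when normal-pressure replicate 3 was left out and 46.4% when replicate 2 was. Of the one-carbon genes, leaving out normal-pressure replicate 2 gave 17 lower and 4 higher. Without normal-pressure replicate 3 or hypoxia replicate 2, 6 were lower, and 1 was higher without normal-pressure replicate 1, hypoxia replicate 2 or hypoxia replicate 3. Of the 12 called genes, 5 passed under all 14 alternatives, namely Aldh1l1, Gamt, Ggh, Pcyt1a and Shmt1.

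Most direct partners of the enzymes did not pass. Mat2b, the regulatory subunit of the Mat2a enzyme, Mtrr, which reactivates methionine synthase, Chdh and Aldh7a1, which make betaine from choline, Cdo1 and Gclc, which use cysteine, and Etfdh, which takes electrons from the dehydrogenases by way of ETF, had log2 fold changes between -0.29 and 0.29 and limma adjusted p between 0.10 and 0.92. Chdh measured 13.77, 10.31 and 15.2 TPM at normal pressure and 15.04, 9.06 and 14.7 TPM under hypoxia. Mtrr measured 9.16, 7.79 and 8.94 TPM at normal pressure and 11.3, 11.38 and 9.63 TPM under hypoxia, and the ratio of Mtr to Mtrr was 1.74 to 1.94 at normal pressure and 1.77 to 2.00 under hypoxia. Mtrr (higher) passed with the protein-coding total, and Aldh7a1, Gclc and Etfdh (all lower) passed with median-ratio scaling and quantile normalization, Etfdh also with the protein-coding total and without normal-pressure replicate 2.

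In the folate list 2 of 19 tested genes rose and 3 fell. Shmt1, the cytosolic serine hydroxymethyltransferase that loads folate with a one-carbon unit, measured 9.61, 9.66 and 9.82 TPM at normal pressure and 14.76, 15.26 and 14.04 TPM under hypoxia, and rose by 0.55 (SE 0.11) on the log2 scale (limma adjusted p = 0.00222). Ggh, which trims the polyglutamate tail of folates, fell from 32.9 ± 3.09 to 19.0 ± 1.27 TPM (limma adjusted p = 0.000236). Aldh1l1, which oxidises formyl-folate and removes one-carbon units, fell from 11.4 ± 1.05 to 7.32 ± 0.766 TPM (adjusted p = 0.0034). The folate carrier Slc46a1 fell by 0.42 and the folate receptor Folr1 rose by 0.41 on the log2 scale, both named after their values were seen. Folr1 lost its call without normal-pressure replicate 1, hypoxia replicate 2 or hypoxia replicate 3. Slc46a1 lost it with no filter on low values and without normal-pressure replicate 3, hypoxia replicate 2 or hypoxia replicate 3. No gene of the 8 for cobalamin supply passed, with a median log2 fold change of -0.02, but 2 were lower with each of the 3 other scalings and without normal-pressure replicate 2, and 1 was higher with the protein-coding total.

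Methyl group use and choline metabolism held the largest falls of these lists. Gamt, which makes creatine and takes its methyl group from S-adenosylmethionine, measured 54.66, 51.53 and 59.46 TPM at normal pressure and 20.43, 22.72 and 28.79 TPM under hypoxia (log2 fold change -1.18, SE 0.13, limma adjusted p = 1.57e-05). Its hypoxia libraries were all far below the normal-pressure libraries. Nnmt, which methylates nicotinamide, fell from 4.24 ± 0.286 to 2.41 ± 0.474 TPM (adjusted p = 0.00473), though not with no filter, and the other 8 of the 10 small-molecule methyltransferase genes did not pass. Of those 10 genes, 4 were lower with median-ratio scaling, and 1 was higher with the protein-coding total. Pcyt1a, the rate-limiting enzyme of phosphatidylcholine synthesis from choline, measured 34.87, 27.65 and 41.68 TPM at normal pressure and 16.16, 12.06 and 13.74 TPM under hypoxia (log2 fold change -1.24, SE 0.14, adjusted p = 3.34e-05). Etfb, a subunit of the flavoprotein ETF that accepts electrons from Dmgdh and Sardh, fell from 90.7 ± 4.20 to 67.1 ± 5.21 TPM (adjusted p = 0.011) but did not pass without hypoxia replicate 3. The other 13 of 15 tested choline, betaine and glycine genes did not pass. With median-ratio scaling 6 genes of that list were lower and 1 higher. Quantile normalization gave 5 and 1, and the protein-coding total 4 and 2.

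Downstream of cysteine, Gss, which completes glutathione, fell from 8.83 ± 1.32 to 6.31 ± 0.734 TPM (limma adjusted p = 0.0348) and Got1, a cytosolic transaminase, fell by 0.35 on the log2 scale (adjusted p = 0.0344). Both lost the call with no filter on low values, without hypoxia replicate 2 and without normal-pressure replicate 3. Got1 lost it in every other omission of a library except normal-pressure replicate 2. The other 11 of 13 genes of this list did not pass. With median-ratio scaling and with quantile normalization 4 genes of the list were lower and 1 higher, and with the protein-coding total 3 and 1. In methionine salvage, Mri1 fell from 15.0 ± 1.01 to 11.4 ± 0.387 TPM (adjusted p = 0.0291) among 13 tested genes. It lost the call with no filter on low values and in each omission of a library except that of normal-pressure replicate 2. In the salvage list 3 genes were lower with median-ratio scaling and with quantile normalization. The protein-coding total gave 2 lower and 1 higher. None of the 8 genes of serine synthesis and methionine transport passed, although 2 were higher with each of the 3 other scalings and 1 was lower with median-ratio scaling.

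**Figure D5:**
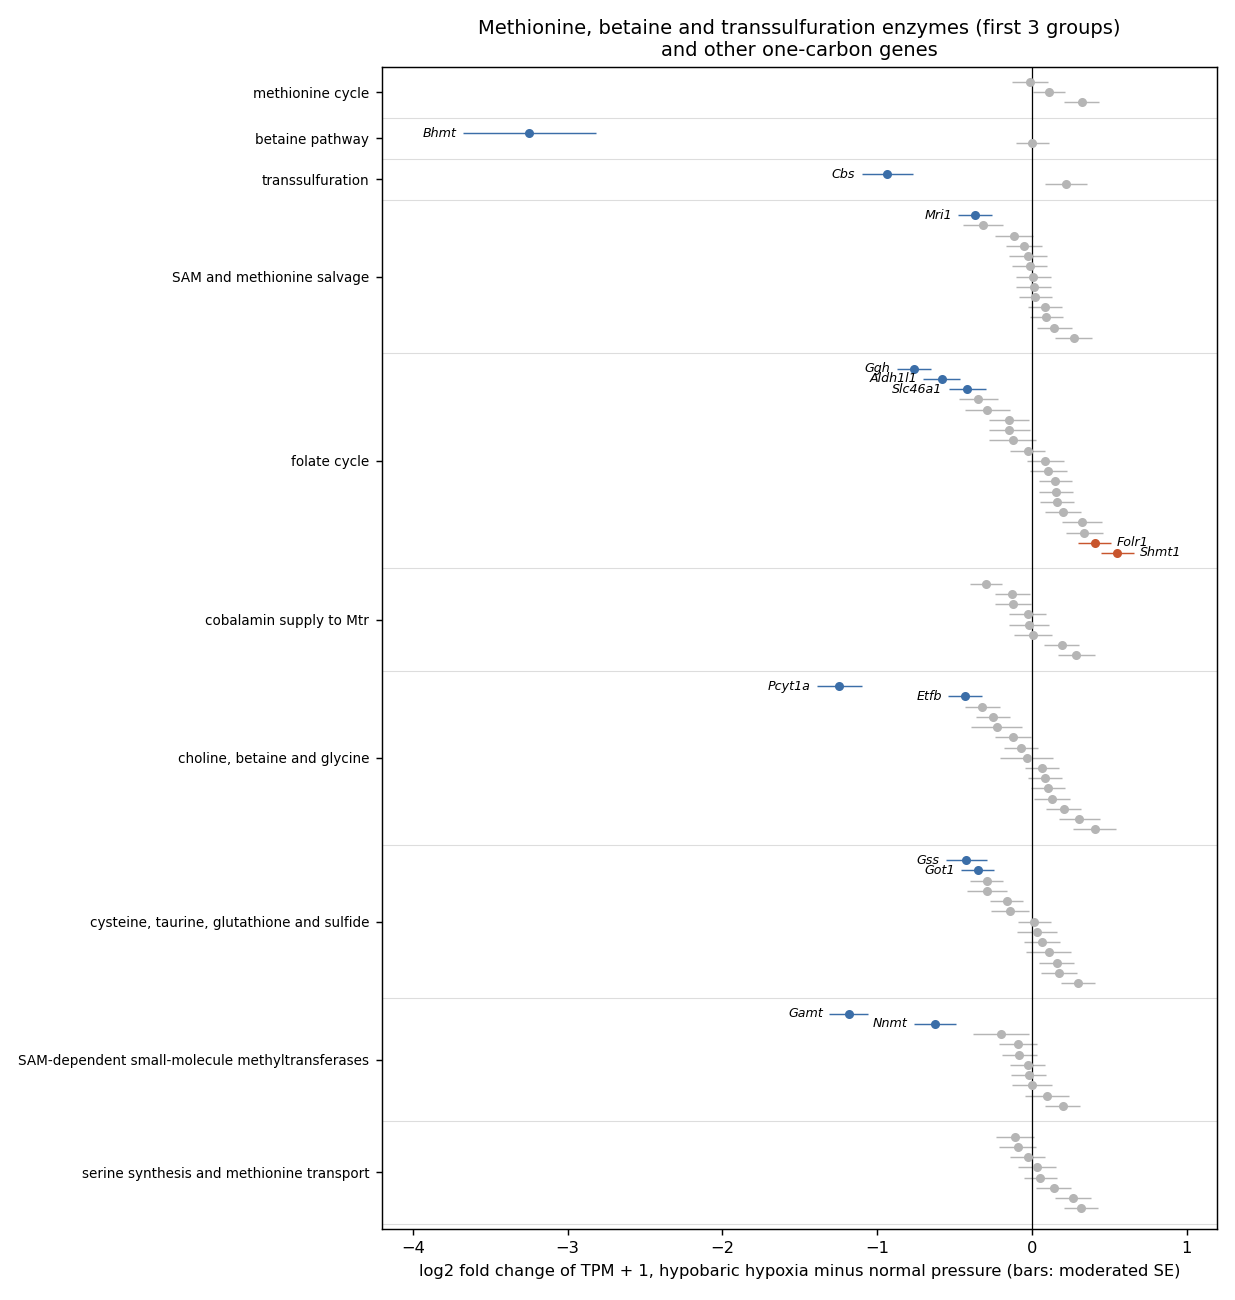
Log2 fold change of TPM + 1, hypobaric hypoxia minus normal pressure, with moderated SE bars, for the tested methionine cycle, betaine and transsulfuration enzymes (first 3 groups) and the 86 tested genes of 7 other lists. Named blue points are lower and named orange points higher past the threshold over all features, and grey points did not pass; Bhmt at -3.25 lies farthest from 0, followed by Pcyt1a at -1.24 and Gamt at -1.18.

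Reads of related genes bear on some of these values. Of the 31-base words in the annotated Bhmt transcripts (GENCODE M21), 0.695% also occur in Bhmt2, while 27.1% occur in Gm5096 and 15.6% in Bhmt-ps1. Neither Gm5096 nor Bhmt-ps1 has values under that name, so how reads were divided between them and Bhmt cannot be seen. Ahcy shares 68.7% with Gm4737, listed at 0 to 0.23 TPM, and 35.3% with Gm9826, which has no values under that name. The division of reads between these genes is uncertain. Mat2a shares 10.3% with Particl, a transcript on the other strand listed at 2.85 to 4.37 TPM, and whether counting used strand is not given in the sources used here. Bhmt, Dmgdh, Sardh, Ahcy and Gnmt also overlap an annotated gene on the other strand. Cth overlaps Gm43314, which is annotated on the same strand and has no values under that name. Cbs, Mtr, Sardh, Cth and Gnmt shared under 5% with any other gene.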

How the data were processed

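The deposited values are TPM for 33036 features in 6 libraries, and the columns sum to between 998175 and 998954. Per the submitters' processing notes, GRCm38.p6 was the build and DESeq2, HISAT2 and Bowtie2 were used. Their versions and roles, the counter and the annotation are not stated. TPM keeps no read depth, so depth is unknown and no counting error can be given. Between 44.5% and 52.6% of a library's TPM lay in its top 20 features, so changes in them shift all other values. The highest share was in normal-pressure replicate 2, which also had the lowest scaling factors. They were 0.851 by median ratio and 0.874 by the protein-coding total (0.990 to 1.07 in the other libraries). On the first principal component (55.0% of variance) hypoxia replicate 3 (12.4) lay nearest to the normal-pressure libraries (-26.9 to -24.4).

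Groups came from the sample titles. Hypobaric hypoxia was compared with normal pressure by limma 3.58.1 in R 4.3.3 (trend on the mean, log2 of TPM plus 1) on 17120 features with at least 1 TPM in at least 3 libraries, with Benjamini-Hochberg adjustment over all of them and a threshold of 0.05, two-sided. The fit was tested on simulated data in which every feature had the same spread, so that test does not cover genes as uneven as Bhmt. The 10 enzymes and all lists were chosen with earlier results of these data known. Genes named were the 10 enzymes, 10 direct partners, up to 3 called genes of the largest change in each of 7 lists, and the neighbours of Bhmt (3 on each side); 1 direct partner is not reported here. Likeness was taken for the 3 enzymes of the largest change. Alternatives were the pseudocount, filter, scaling (median-ratio, quantile and the protein-coding total without Zfp949), robust variance, a replicate block and leaving out each library. Promoter windows and gene positions are RefSeq's on GRCm38.p6.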

Additional observations from a re-analysis of the deposited data

How the results depend on the processing

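With no filter on low values, 687 features were higher and 546 lower, 1 of the homocysteine, methionine and betaine enzymes (Bhmt) was lower, and 5 one-carbon genes were lower. Median-ratio scaling gave 3135 features lower, 7 one-carbon genes higher and 24 lower. Quantile normalization gave 3399 features higher and 2772 lower, with 7 one-carbon genes higher and 20 lower, and the protein-coding total gave 3699 and 2543, with 12 and 17. The deposited scale gave 1906 higher and 1233 lower, and the median log2 fold change of all features was 0.08 there and 0.01 with median-ratio scaling. One enzyme, Mtr, was higher with each of these scalings, with a minimum of 5 TPM, with robust variance, with the replicate block, and without normal-pressure replicate 2 or 3. With robust variance 1 enzyme (Cbs) was lower and 5 one-carbon genes were higher. Leaving out each library in turn, features called higher numbered 1170 to 2044 and lower 795 to 2143, the enzymes 0 to 1 higher and 2 in each case lower, and the one-carbon genes 1 to 4 higher and 6 to 17 lower. The causes of these shifts were not tested.

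The replicate numbers are shared by the groups. Deviations of same-numbered libraries from their group means correlated across features at r = -0.034, 0.11 and -0.050 for numbers 1, 2 and 3. Pairs of unlike number gave -0.079 to 0.11. With 3 libraries in each group these values cannot tell whether same-numbered libraries share more than a number and the 15, 16 or 17 days of the descriptions. With the replicate block, 1 enzyme (Mtr) and 4 one-carbon genes were higher. Sign was checked for the enzymes, the direct partners, up to 3 called genes of each list and the neighbours of Bhmt. None of their log2 fold changes that passed changed sign under any of the alternatives. Folr1, Slc46a1, the cell type markers and the genes of like pattern were not in this check. The unknown depth limits what the values under 1 TPM (Bhmt2, Dmgdh, Gnmt) can show.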
